A study of Mus musculus with 15 samples.

Results

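Histone and DNA modifying enzymes were followed at the mRNA level in cultured mouse adipocytes kept at 37°C or moved to 31°C. The set was defined by a rule on gene symbols, chosen with earlier results of these data known. It leaves out a gene that is not reported here. It takes the lysine demethylases (Kdm genes), the zinc-dependent deacetylases (Hdac genes), the sirtuins, the Tet dioxygenases, the Ezh and numbered Setd methyltransferases, Ehmt1 and Ehmt2, the acetyltransferases Ep300, Crebbp, Kat2a and Kat2b, and Dnmt1, Dnmt3a, Dnmt3b and Uhrf1. It held 55 of the 18804 genes in the count table. Setd8 is listed as Kmt5a in newer annotations, and all 55 symbols were matched to the GENCODE annotation of mm10.

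The cells came from C57BL/6J mice. Mesenchymal stem cells, taken from the ear according to the study's methods, were turned into adipocytes with methylisobutylxanthine, dexamethasone and insulin plus a thiazolidinedione, given as troglitazone in the labels and in one part of the methods, and as rosiglitazone in another part. All cells in the 3 groups of 5 libraries shared this treatment and were harvested on day 16 of differentiation. The day 0 group stayed at 37°C, the day 1 group went to 31°C on day 15 and the day 12 group as early as day 4, so that the day 12 cells also spent most of their differentiation in the cool. The sources used here do not say whether the 5 libraries of a group were separate animals, separate preparations or separate dishes, so p-values measure only the spread between these libraries.

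These enzymes write and erase chemical marks on chromatin. DNA methyltransferases and histone methyltransferases take the methyl group from S-adenosylmethionine, acetyltransferases take the acetyl group from acetyl-CoA, and the erasers remove the marks again: Tet enzymes and most Kdm enzymes with iron, oxygen and 2-oxoglutarate, Hdac enzymes with zinc, and sirtuins with NAD. In adipocyte differentiation Ezh2 is known for silencing Wnt genes, Kdm1a and Ehmt2 for opposing roles at adipogenic promoters, and Ep300 and Crebbp as coactivators of Pparg.

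Library totals ran from 64648178 to 133270973 reads in genes, and the lowest count of any enzyme in any library was 32 (Kdm4d), so all 55 genes passed the filter on low counts. Levels are given as CPM, counts scaled to a common library size, after TMM scaling, which reduces composition differences between libraries. The adipocyte marker list summed to 2570 to 2890 CPM at day 0, 3170 to 3390 CPM at day 1 and 2740 to 2990 CPM at day 12. Its members went apart: Adipoq averaged 1090 CPM at day 0 and 464 CPM at day 12, Cidec 177 and 59 CPM and Pparg 119 and 78.6 CPM, whereas Fabp4 averaged 828 and 1620 CPM. The fibroblast and progenitor list was also high, summing to 11100 to 11600, 9340 to 9950 and 8530 to 8870 CPM. Most of that sum was Col3a1 (6730 and 3900 CPM at days 0 and 12) and Col1a1 (2650 and 1970 CPM). Ly6a (591 and 221 CPM) and Dlk1 (38.3 and 20.4 CPM) were also lower at day 12. Pdgfra (562 and 712 CPM), Pdgfrb (131 and 184 CPM), Fbn1 (196 and 286 CPM) and S100a4 (361 and 1260 CPM) were higher on average at day 12. Thy1 (137 and 145 CPM) and Cd34 (46.6 and 43.7 CPM) differed little. A chondrocyte list summed to 3670 to 4400, 3900 to 4060 and 1130 to 1220 CPM, of which Comp made up 3720 CPM at day 0 and 919 CPM at day 12, with Col2a1 at 149 ± 15.8 and 182 ± 23.9 CPM (SD, n = 5). A mesothelial and epithelial list summed to 9.63 to 11.6, 12.8 to 15.1 and 29.5 to 43.8 CPM, with Msln at 0.628 CPM at day 0 and 29.3 CPM at day 12. Endothelial markers summed to at most 1.53 CPM, with Cdh5 at 0.00218 ± 0.00488 CPM (SD, n = 5) at day 0. An immune list summed to 26.5 to 33.7, 42.4 to 48.4 and 30.1 to 34.3 CPM. Cd14 (20.7, 33.9 and 23.8 CPM) and Cd68 (7.5, 10.3 and 5.14 CPM) made up most of it, while Ptprc was at 0.0288 ± 0.0183 CPM (SD, n = 5) at day 0. A smooth and skeletal muscle list summed to 280 to 323, 382 to 501 and 310 to 400 CPM, mostly Acta2 (285, 414 and 356 CPM). Markers of more than one cell type were thus high, and in bulk RNA fewer cells of a type cannot be told apart from less RNA per cell.

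One library stood apart in a way that touches this set. In day 1 replicate 5, genes with at least 10000 bases of exon had a median log2 deviation of -0.0938 from the other day 1 libraries (1028 genes), whereas genes under 3000 bases had 0.0308 (2050 genes). The 14 enzymes with such long transcripts and at least 10 CPM had a median deviation of -0.175 in that library, and the other enzymes -0.00576. Most counts that involve day 1 are therefore also given without it, after those with all libraries.

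The promoters of 5 of the enzymes hold words of the kind bound by E2F factors, the regulators of S phase genes. Of these, Uhrf1 and Ezh2 rose by more than 1.5-fold at day 12. Dnmt1 and Kat2a rose by less (log2 0.26 and 0.37), and Sirt4 was lower (-0.25). RefSeq promoter windows (GRCm38.p6, the assembly of mm10), from 250 bases before to 50 bases after each start, were searched on both strands for TTTCGCGC, TTTGGCGC, TTTCCCGC and TTTGCCGC. Windows were found for 47 of the 55 enzymes, and not for Hdac1, Hdac3, Hdac10, Kdm2a, Kdm3b, Kdm4b, Kdm5a and Kdm6b. A word was present in 5 of the 47 (10.6%), beside 704 of 27025 genes (2.6%) and 744 of 32851 windows (2.26%) overall and 8 of 28 genes (28.6%) of a cell cycle list. The 6 matches, none of which overlapped another, are shown with 30 bases each in the direction of the gene, with the matched word in capitals. A match describes the letters only and shows no binding.
Uhrf1 (chr17:56304117-56304146, plus strand, word beginning 185 bases before the start): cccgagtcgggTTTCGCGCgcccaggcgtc
Ezh2 (chr6:47595009-47595038, minus strand, 4 bases after the start): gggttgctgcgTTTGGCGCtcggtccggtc
Dnmt1, first match (chr9:20952824-20952853, minus strand, 219 bases before the start, word on the opposite strand): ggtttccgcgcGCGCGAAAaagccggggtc
Dnmt1, second match (chr9:20952574-20952603, minus strand, 34 bases after the start): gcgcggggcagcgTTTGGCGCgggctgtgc
Kat2a (chr11:100712508-100712537, minus strand, 59 bases before the start, word on the opposite strand): aaggatgggaaGCGGCAAAggaagactacg
Sirt4 (chr5:115484288-115484317, minus strand, 9 bases before the start): ccggctgaaggTTTCCCGCtgagcattctt

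Few of these enzymes changed by more than 1.5-fold at either time, and those that did were mostly genes of low or moderate level. A gene was called when the edgeR quasi-likelihood test gave a Benjamini-Hochberg adjusted p under 0.05 over the 14293 genes tested and its fold change passed 1.5 (0.585 on the log2 scale). At day 1 against day 0, 0 enzymes were called higher, where 7.71% of all genes tested were, and 2 were called lower (3.64% of the enzymes), where 13.4% of all genes were. The 2 were Tet1 and Kdm5c. At day 12 against day 0, 3 were called higher (5.45%), where 13.0% of all genes were, and 3 lower (5.45%), where 16.2% were. Uhrf1, Ezh2 and Kdm4d rose, and Hdac11, Tet1 and Sirt3 fell. At day 12 against day 1, the same 3 genes that rose against day 0 were higher (5.45%), where 10.6% of all genes were, and 0 were called lower, where 8.53% were. Both counts of 0 were also 0 with DESeq2. With no fold limit, 19 enzymes were higher at day 1 against day 0 and 15 lower at day 12 against day 1 by an unadjusted edgeR p under 0.05. The share of all genes at that limit is not given here. By adjusted p alone, 35.3% and 32.8% of all genes passed in these directions. The comparisons with day 0 share their control libraries, so their values are set side by side and not as independent evidence.

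Most differences were small but larger than the spread between libraries. By adjusted p alone, day 1 had 18 higher and 23 lower enzymes, where 35.3% and 36.2% of all genes were. The counts for day 12 were 25 and 17 against day 0 (39.2% and 37.4% of all genes) and 22 and 15 against day 1 (34.3% and 32.8%). The median absolute log2 fold change of the enzymes was 0.205 after 1 day and 0.246 after 12 days, and that of all genes tested was 0.296 and 0.352. Between day 12 and day 1 it was 0.174 for the enzymes and 0.249 for all genes. Part of this gap went with level: among genes averaging at least 10 CPM, the medians were 0.187 for 45 enzymes and 0.238 for 8925 genes at day 1, and 0.249 and 0.277 at day 12. In that stratum 1 enzyme was called at day 1 (2.22%, where 12.7% of the 8925 genes were), 3 at day 12 (6.67%, where 19.0% were) and 1 between day 12 and day 1 (2.22%, where 10.1% were). These calls come from the fit of all genes tested. A refit with a filter at that level also called Hdac11 (-0.63) and Kdm1b (-0.615) lower at day 1. The signed medians were near 0 for the enzymes (-0.0535 after 1 day and 0.0548 after 12 days) and for all genes (-0.00884 and 0.0123).

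The level at day 1 in all 5 libraries lay above all 5 day 0 libraries for 14 enzymes and below them for 18, with the other 23 overlapping. Over all genes tested the shares were 28.6% above and 28.8% below. At day 12, 20 enzymes lay above all day 0 libraries, 16 below and 19 overlapped them, beside 33.0% and 31.7% of all genes. Against day 1, the day 12 libraries lay above for 20, below for 10 and overlapped for 25, beside 26.5% and 25.9% of all genes.

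**Figure D1:**
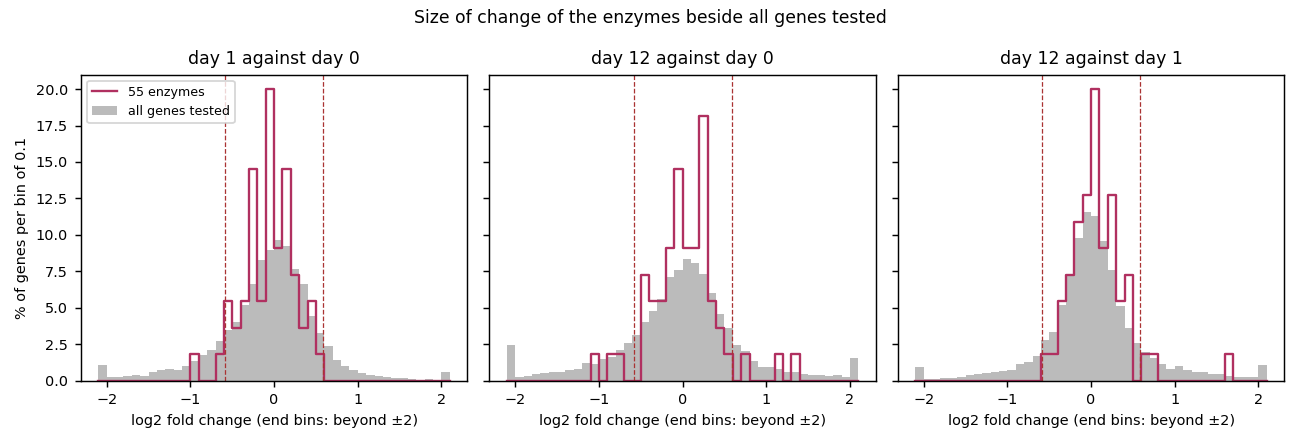
Share of genes (percent, y axis) in bins of 0.1 of the log2 fold change (x axis) in each comparison, for all 14293 genes tested (grey) and for the 55 enzymes (line); dashed lines mark 1.5-fold and the end bins hold everything beyond 2. The enzymes are gathered between the dashed lines, with 2, 6 and 3 of them called outside in the 3 panels, where 21.1%, 29.2% and 19.1% of all genes were called in either direction.

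Without day 1 replicate 5, 3 enzymes were called lower at day 1, with Hdac11 at -0.61 joining Tet1 and Kdm5c, and 1 was called higher (Kat2b, 0.60). Of all genes, 13.3% were called lower and 7.49% higher. Hdac11 and Kat2b had missed the 1.5-fold limit narrowly with all libraries, at -0.58 and 0.58. By adjusted p alone the day 1 counts without it were 20 higher and 21 lower, beside 34.6% and 35.2% of all genes: Setd2, Tet2 and Tet3 came in as higher, Sirt6 dropped out as higher, and Dnmt1 and Kdm6b dropped out as lower. The remaining 4 day 1 libraries lay above all day 0 libraries for 18 enzymes, below for 18 and overlapped for 19, beside 29.5% and 29.7% of all genes. At day 12 against day 1 the counts without it were 3 higher and 0 lower, beside 10.3% and 8.47% of all genes. By adjusted p alone they were 22 and 15, beside 32.9% and 32.1% of all genes. The library numbers in the labels fall in 2 series, of 11 and 4 libraries. With the larger series alone, 1 enzyme was called higher and 3 lower at day 1, 3 and 3 at day 12 against day 0, and 3 and 0 at day 12 against day 1. Of the 14480 genes tested there, 1055 and 1859, 1832 and 2338, and 1401 and 1190 were called higher and lower. Dividing by total counts in place of TMM raised the median of all genes to 0.205 at day 12 against day 0 and 0.182 against day 1. Small decreases at day 12 can therefore turn positive on that scale. The enzymes for which this happened are listed in the last section, and genes of the other lists are not marked for it.

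At 37°C the enzymes covered a wide range of levels per exon length. Ehmt2, a histone H3 methyltransferase of repressed chromatin, was highest at 28.1 ± 1.03 CPM per kb, next to the deacetylase Hdac1 at 27.9 ± 1.17 CPM per kb (SD, n = 5). Setd8, the histone H4 monomethyltransferase, stood at 21.5 ± 0.592, Setd3, an actin histidine methyltransferase despite its family name, at 21.3 ± 0.343, and the cytoplasmic tubulin deacetylase Sirt2 at 19.9 ± 0.596 CPM per kb (SD, n = 5). Ehmt2 and Hdac1 differed by less than their spread, as did Setd8 and Setd3. Tet1 was lowest at 0.169 ± 0.0264 CPM per kb, with Dnmt3b at 0.187 ± 0.0403 and Kdm4d at 0.196 ± 0.0406 CPM per kb (SD, n = 5), and these 3 did not differ beyond their spread.

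**Figure D2:**
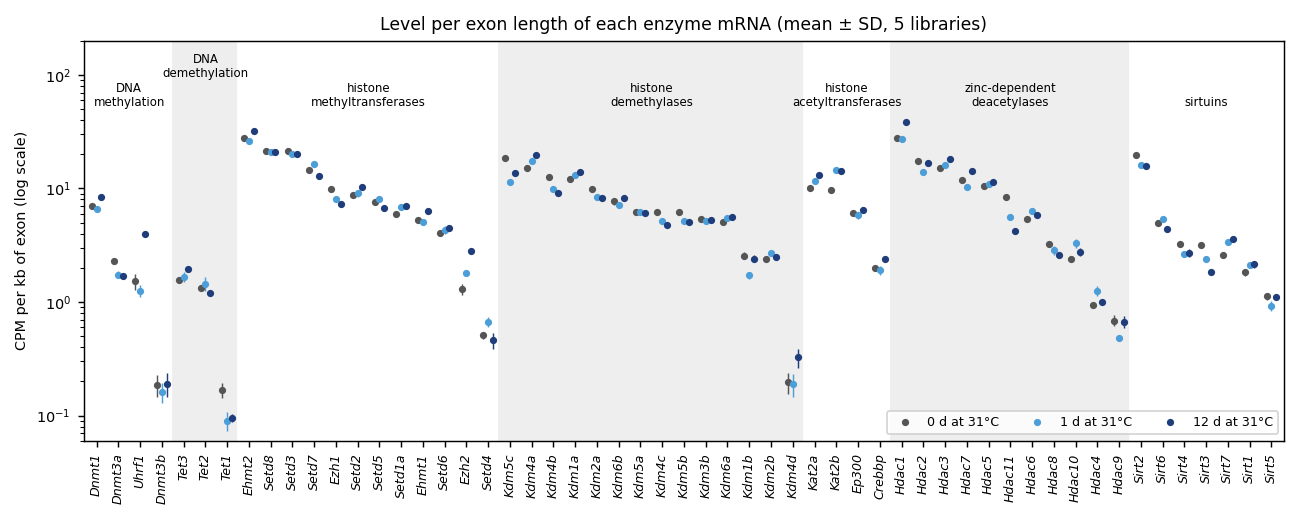
Mean level of each of the 55 enzyme mRNAs in CPM per kb of exon (y axis, log scale), ordered by class and by level at 37°C, for 0, 1 and 12 days at 31°C; lines are SD over 5 libraries. Dnmt1, Ehmt2, Hdac1 and Sirt2 are the highest of their classes at all 3 times, and Uhrf1, Ezh2, Kdm4d, Tet1 and Hdac11 show wide gaps between times.

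The maintenance of DNA methylation is carried out by Dnmt1, which copies methyl marks to the new strand, with Uhrf1, which recognizes hemimethylated DNA and recruits it. Uhrf1 (chromosome 17, 56303321 to 56323486, plus strand) measured 6.59, 8.18, 6.14, 5.81 and 5.71 CPM in the day 0 libraries. It measured 5.33, 5.08, 6.07, 4.34 and 5.70 CPM at day 1 and 16.3, 16.8, 17.4, 17.3 and 17.0 CPM at day 12. Every day 12 library lay far above every other library, and the day 0 and day 1 libraries overlapped. Uhrf1 was 2.61-fold higher at day 12 than at day 0 (log2 1.38 ± 0.0831 SE, edgeR adjusted p = 1.81e-13) and 3.18-fold higher than at day 1 (log2 1.67 ± 0.0857 SE, edgeR adjusted p = 1.93e-14). At day 1 its log2 fold change against day 0 was -0.28 ± 0.0881 (SE), short of 1.5-fold.

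Dnmt1 moved much less than its partner. It measured 52.3, 53.2, 52.4, 50.4 and 52.2 CPM at day 0, 51.0, 50, 49.9, 47.7 and 46.7 CPM at day 1, and 60.4, 61.1, 63.2, 64.9 and 62.9 CPM at day 12. The day 12 libraries lay above all others, but the log2 fold change was only 0.26 ± 0.0307 (SE) against day 0 (edgeR adjusted p = 3.82e-08). The de novo methyltransferase Dnmt3a went the other way, from 38.7 ± 1.32 CPM at day 0 to 28.9 ± 2.05 after 1 day and 28.3 ± 1.29 after 12 days (SD, n = 5), with log2 fold changes of -0.42 and -0.45 that passed the adjusted p but not 1.5-fold. The other de novo enzyme, Dnmt3b, was near 1 CPM in every group, and its values overlapped throughout.

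The 3 Tet enzymes, which oxidize methylcytosine, behaved differently from one another. Tet1 (chromosome 10, 62804570 to 62908996, minus strand) measured 2.75, 2.13, 3.21, 2.63 and 2.36 CPM at day 0, 1.08, 1.46, 1.78, 1.38 and 1.26 CPM at day 1, and 1.42, 1.39, 1.41, 1.43 and 1.67 CPM at day 12. Every cool library lay below every 37°C library, and the 2 cool groups overlapped. Tet1 fell 1.88-fold at day 1 (log2 -0.909 ± 0.138 SE, edgeR adjusted p = 2.55e-06) and was 1.79-fold lower at day 12 (log2 -0.836 ± 0.137 SE, edgeR adjusted p = 6.23e-06), on counts of 84 to 347 reads per library.

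Tet2 measured 22.6, 22.1, 23.8, 21.8 and 21.4 CPM at day 0, 26.7, 26.0, 25.4, 25.9 and 18.7 CPM at day 1, and 19.2, 21.8, 21.6, 19.6 and 19.5 CPM at day 12. Day 1 replicate 5 was the lowest of all 15 libraries, the other day 1 libraries lay above all the rest, and day 0 and day 12 overlapped. Its log2 fold change at day 1 was 0.13 (edgeR adjusted p = 0.0862) with that library and 0.22 (adjusted p = 1.33e-04) without it. Tet3 measured 26.3, 24.7, 26.5, 26.6 and 25.2 CPM at day 0, 28.9, 28.2, 29.9, 28.9 and 23.3 CPM at day 1, and 34.8, 32.0, 32.6, 32.7 and 32.3 CPM at day 12. The day 12 libraries lay above all others, by a log2 fold change of 0.35 ± 0.0499 (SE) against day 0. At day 1 the Tet3 value was 0.11 (edgeR adjusted p = 0.0635), and 0.17 (adjusted p = 3.47e-04) without replicate 5.

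The step after Tet oxidation is base excision. The glycosylase Tdg, which removes the oxidized bases, averaged only 0.309, 0.654 and 0.627 CPM at days 0, 1 and 12. Its log2 fold changes against day 0 were 1.09 ± 0.258 (SE) at day 1 and 1.04 ± 0.258 (SE) at day 12. These were opposite in sign to those of Tet1, but rest on a very low level and have wide errors. Mbd4, a glycosylase for mismatches at methylated CpG sites, fell by 0.65 and 0.72 at the same times. Ogt, which binds the Tet proteins, fell at day 1 (-1.12) and had -0.47 at day 12, short of 1.5-fold.

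**Figure D3:**
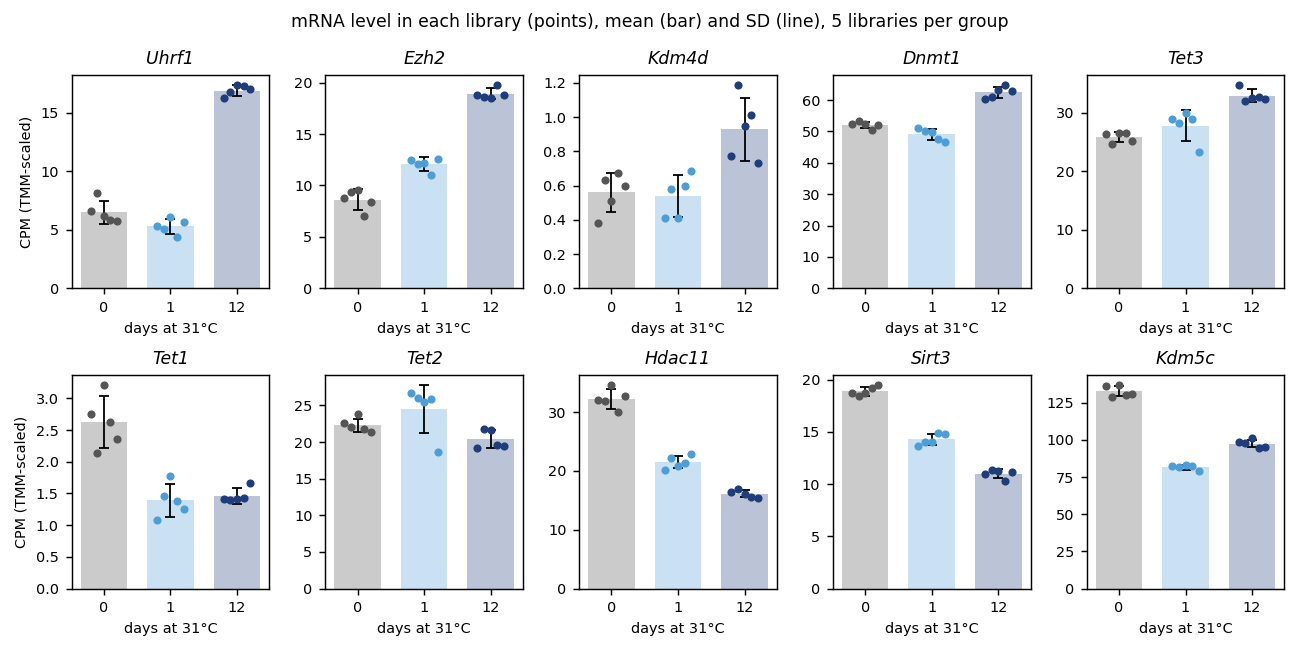
CPM (y axis, TMM-scaled, from 0) of 10 enzyme mRNAs in each of the 15 libraries (points) at 0, 1 and 12 days at 31°C (x axis), with the mean (bar) and SD (line) of 5 libraries. Uhrf1 is raised at day 12 alone (16.3 to 17.4 CPM), Ezh2 at both times, Tet1, Hdac11, Sirt3 and Kdm5c are below day 0 at both times, and the low value of day 1 replicate 5 shows for Tet2 and Tet3.

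Among the 12 histone methyltransferases, 1 was called, higher at day 12 (8.33%, where 13.0% of all genes were). Ezh2, the main catalytic subunit of Polycomb repressive complex PRC2 in dividing cells, lies on chromosome 6 (47530139 to 47595341, minus strand). It measured 8.74, 9.36, 9.60, 7.07 and 8.36 CPM at day 0, 12.5, 12.1, 12.2, 11 and 12.6 CPM at day 1, and 18.8, 18.6, 18.5, 19.8 and 18.8 CPM at day 12. The 3 groups did not overlap and stood in the order of time in the cool. The log2 fold change against day 0 was 0.49 ± 0.0633 (SE) at day 1 and 1.13 ± 0.0623 (SE) at day 12, a 2.19-fold rise (edgeR adjusted p = 3.38e-14). Day 12 was 1.56-fold above day 1 (log2 0.644 ± 0.0615 SE, edgeR adjusted p = 1.9e-09).

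Ezh1, the PRC2 subunit of resting cells, ran opposite to Ezh2. It averaged 73.0 ± 2.13 CPM at day 0, 60.2 ± 2.01 after 1 day and 54.4 ± 1.18 after 12 days (SD, n = 5), with log2 fold changes of -0.28 and -0.43 (edgeR adjusted p = 1.02e-08 and 3.95e-12). Per kb of exon, Ezh1 stood at 9.82 and Ezh2 at 1.29 CPM per kb at day 0, and at 7.31 and 2.83 at day 12. Of their partners, the core subunit Suz12 was higher at both times by adjusted p (log2 fold changes of 0.12 and 0.17 at days 1 and 12), and Eed, which binds methylated histone H3, was lower at both (-0.13 and -0.57), none of them past 1.5-fold. The histone-binding subunits Rbbp4 (0.32 and 0.17) and Rbbp7 (0.36 and 0.48), which PRC2 shares with deacetylase complexes, were also higher at both times by adjusted p and under 1.5-fold. For day 12 against day 1, the accessory subunits also differed in sign. Mtf2 and Phf19 rose by 0.64 and 0.84 on the log2 scale, whereas their paralog Phf1 had -0.44 (edgeR adjusted p = 4.87e-12), Jarid2 0.15 and Aebp2 -0.02. Against day 0, Mtf2 had -0.32 at day 1 and 0.32 at day 12, and Phf19 -0.40 and 0.44, none past 1.5-fold. Phf19 averaged only 1.74, 1.31 and 2.37 CPM at days 0, 1 and 12.

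By adjusted p alone, 5 of the 12 methyltransferases were above day 0 after 1 day (Ezh2, Setd1a, Setd4, Setd5 and Setd7) and 3 below it (Ehmt2, Ezh1 and Setd3). The shares of all genes were 35.3% and 36.2%, and without day 1 replicate 5 the counts were 6 and 3. After 12 days 6 were above and 4 below (Ezh1, Setd3, Setd5 and Setd7), beside 39.2% and 37.4% of all genes. Setd3, Setd5 and Setd7 turn positive at day 12 when scaled by total counts. The class median log2 fold change was 0.0729 after 1 day and 0.0569 after 12 days. The partners Ehmt1 and Ehmt2, which work as a heterodimer, had log2 values of 0.26 and 0.19 at day 12. Setd7, a lysine monomethyltransferase, averaged 156, 177 and 140 CPM at days 0, 1 and 12, with log2 values of 0.19 and -0.15 against day 0. Setd1a, an H3 methyltransferase of active promoters, had 0.21 and 0.25, but 52.3% of its exon bases are shared with other annotated genes, so its reads are uncertain. Setd4, singled out after its values were seen, averaged 2.73, 3.60 and 2.48 CPM, and its log2 value of -0.543 from day 1 to day 12 was short of 1.5-fold with all libraries and called (-0.627) without day 12 replicate 4.

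Of the 14 histone demethylases, 1 was called lower at day 1 (7.14%, where 13.4% of all genes were) and 1 higher at day 12 (7.14%, where 13.0% were). Kdm5c, an X-linked eraser of active promoter methylation (chromosome X, 152233020 to 152274535, plus strand), measured 136, 129, 137, 130 and 131 CPM at day 0. It measured 82.2, 81.6, 83.2, 82.5 and 78.9 CPM at day 1 and 98.5, 97.7, 101, 94.8 and 95.5 CPM at day 12. The 3 groups did not overlap, with day 1 lowest and day 12 between. It fell 1.62-fold at day 1 (log2 -0.70 ± 0.0269 SE, edgeR adjusted p = 8.17e-17). At day 12 it was 1.36-fold under day 0 (log2 -0.445 ± 0.0268 SE, adjusted p = 1.82e-13) and 1.19-fold over day 1, neither past 1.5-fold.

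Kdm4d (chromosome 9, 14462548 to 14500482, minus strand), a mostly testis-expressed member of the family that demethylates histone H3 of heterochromatin, was the least abundant of the set by CPM. It measured 0.381, 0.635, 0.511, 0.671 and 0.600 CPM at day 0, 0.410, 0.583, 0.413, 0.600 and 0.686 CPM at day 1, and 0.772, 1.19, 0.947, 1.01 and 0.734 CPM at day 12. The day 12 libraries lay just above all others, on 71 to 94 reads per library. The rise was 1.66-fold against day 0 (log2 0.735 ± 0.216 SE, edgeR adjusted p = 0.00369) and 1.72-fold against day 1 (log2 0.779 ± 0.22 SE, adjusted p = 0.00327), with much wider errors than the other called genes.

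The larger Kdm4 relatives differed in sign. Kdm4a averaged 87.4 ± 2.25 CPM at day 0, 102 ± 4.10 after 1 day and 114 ± 3.33 after 12 days (SD, n = 5), with log2 values of 0.22 and 0.39. Kdm4b averaged 61.9 ± 3.10, 48.4 ± 1.36 and 45.0 ± 2.12 CPM (SD, n = 5), with log2 values of -0.36 and -0.46, and Kdm4c had -0.28 and -0.39. All of these passed the adjusted p at both times (edgeR, 4.04e-06 or lower) and none passed 1.5-fold. Kdm1b, a flavin-dependent demethylase, was at 14.1 ± 0.99 CPM at day 0, 9.47 ± 0.713 after 1 day and 13.2 ± 0.91 after 12 days (SD, n = 5). Its day 1 libraries lay below all the others, and its log2 fold change of -0.57 was just short of the limit. Kdm2a, which acts at CpG islands, had -0.25 and -0.27 at days 1 and 12.

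Over the class, the adjusted p alone put 4 demethylases above day 0 (Kdm1a, Kdm2b, Kdm4a and Kdm6a) and 7 below it after 1 day. The shares of all genes were 35.3% and 36.2%, and without day 1 replicate 5 the counts were 4 and 6. After 12 days it put 4 above (Kdm1a, Kdm4a, Kdm4d and Kdm6a) and 5 below (Kdm2a, Kdm4b, Kdm4c, Kdm5b and Kdm5c), beside 39.2% and 37.4% of all genes. The class medians were -0.0902 and -0.0225 at the 2 times. Kdm3b and Kdm5a passed in neither comparison with day 0. Some demethylase genes are known to respond to low oxygen. A list of 19 hypoxia response genes moved at the same time, with 9 called lower after 1 day (47.4%) and 18 after 12 days (94.7%) and none higher (medians -0.516 and -1.08), and its part in the demethylase values was not tested.

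All 4 histone acetyltransferases were higher at day 12 by adjusted p alone, where 39.2% of all genes were, on both TMM and total count scaling, and none was called at 1.5-fold on TMM scaling. Kat2b (PCAF) measured 46.9, 48.0, 47.5, 48.6 and 46.8 CPM at day 0, 72.0, 70.7, 76.6, 68.3 and 67.5 CPM at day 1, and 68.6, 69.4, 69.8, 71.9 and 65.3 CPM at day 12. Both cool groups lay clear of day 0 and overlapped each other. Its log2 fold change was 0.58 ± 0.0338 (SE) at day 1 and 0.54 ± 0.0338 (SE) at day 12 (edgeR adjusted p = 1.79e-13 and 4.35e-13), at the edge of the limit. Kat2a (GCN5), its closest relative, averaged 35.3 ± 0.674, 40.3 ± 1.43 and 45.5 ± 0.537 CPM (SD, n = 5), with log2 values of 0.19 and 0.37. Crebbp and Ep300 had -0.06 and -0.06 at day 1 and 0.28 and 0.11 at day 12.

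Of the 11 zinc-dependent deacetylases, 1 was called, lower at day 12 (9.09%, where 16.2% of all genes were). Hdac11 (chromosome 6, 91156665 to 91174692, plus strand), the single class IV enzyme and a known fatty deacylase, measured 32.1, 31.8, 34.6, 30 and 32.7 CPM at day 0. It measured 20.2, 22.2, 20.9, 21.4 and 22.9 CPM at day 1 and 16.4, 16.9, 16.1, 15.6 and 15.4 CPM at day 12. The 3 groups did not overlap and fell in the order of time in the cool. Hdac11 was 2-fold lower at day 12 than at day 0 (log2 -1 ± 0.0433 SE, edgeR adjusted p = 2.96e-16). Its log2 value of -0.58 ± 0.0425 (SE) at day 1 sat at the 1.5-fold limit, and that of day 12 against day 1 was -0.42 ± 0.0441 (SE). Genes on the opposite strand share 17.9% of its exon bases, and the strand setting of the counting is not given in the sources used here.

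The class I enzymes, the nuclear catalytic core of Sin3, NuRD and NCoR complexes, had smaller values. Hdac1 averaged 96.2 ± 4.01 CPM at day 0, 93.0 ± 3.60 after 1 day and 131 ± 3.67 after 12 days (SD, n = 5), a log2 value of 0.45 ± 0.0321 (SE) at day 12 that was called only with total count scaling (0.64). Hdac2 averaged 77.7 ± 1.91, 62.8 ± 2.03 and 75.8 ± 3.10 CPM (SD, n = 5), lower at day 1 (-0.31, edgeR adjusted p = 5.63e-09) and back near the start at day 12. Hdac3 had log2 values of 0.09 and 0.26. Of the class II enzymes, Hdac7 had -0.19 and 0.25, Hdac4 0.39 and 0.07, and Hdac10 0.47 and 0.22 at days 1 and 12, and 22.4% of the exon bases of Hdac4 lie opposite another gene. In all, the adjusted p alone put 4 of the 11 above day 0 after 1 day (Hdac3, Hdac4, Hdac6 and Hdac10) and 5 below (Hdac2, Hdac7, Hdac8, Hdac9 and Hdac11). The shares of all genes were 35.3% and 36.2%, and without day 1 replicate 5 the counts were also 4 and 5. After 12 days it put 6 above and 2 below (Hdac8 and Hdac11), beside 39.2% and 37.4% of all genes.

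Of the 7 sirtuins, 1 was called, lower at day 12 (14.3%, where 16.2% of all genes were). Sirt3 (chromosome 7, 140863666 to 140882309, minus strand), the main deacetylase of mitochondria, measured 18.7, 18.4, 18.7, 19.2 and 19.5 CPM at day 0. It measured 13.7, 14.0, 14.0, 14.9 and 14.8 CPM at day 1 and 11, 11.4, 11.3, 10.3 and 11.2 CPM at day 12. The 3 groups did not overlap and fell in the order of time in the cool. The log2 fold change was -0.40 ± 0.0423 (SE) at day 1 and -0.773 ± 0.043 (SE) at day 12, a 1.71-fold fall (edgeR adjusted p = 4.15e-14). Scaled by total counts the day 12 value was -0.58, just short of 1.5-fold, and 12.7% of the exon bases of Sirt3 lie opposite other genes.

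The nuclear and nucleolar Sirt7 averaged 13.3 ± 0.555 CPM at day 0, 17.3 ± 0.603 after 1 day and 18.5 ± 1.17 after 12 days (SD, n = 5), with log2 values of 0.38 and 0.47. Sirt2 had -0.32 and -0.34 at the same times, and Sirt1, the best known NAD-dependent deacetylase of the nucleus, 0.21 and 0.23, all past the adjusted p (edgeR, 0.00363 or lower). Sirt4, a mitochondrial sirtuin, had -0.28 and -0.25, while Sirt5, also mitochondrial, had -0.29 at day 1 and -0.02 at day 12. Over the class, the adjusted p alone put 3 above day 0 after 1 day (Sirt1, Sirt6 and Sirt7) and 4 below. The shares of all genes were 35.3% and 36.2%, and without day 1 replicate 5 the counts were 2 and 4. After 12 days it put 2 above (Sirt1 and Sirt7) and 4 below (Sirt2, Sirt3, Sirt4 and Sirt6), beside 39.2% and 37.4% of all genes. Of these, Sirt6 (-0.18) turns positive with total count scaling.

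**Figure D4:**
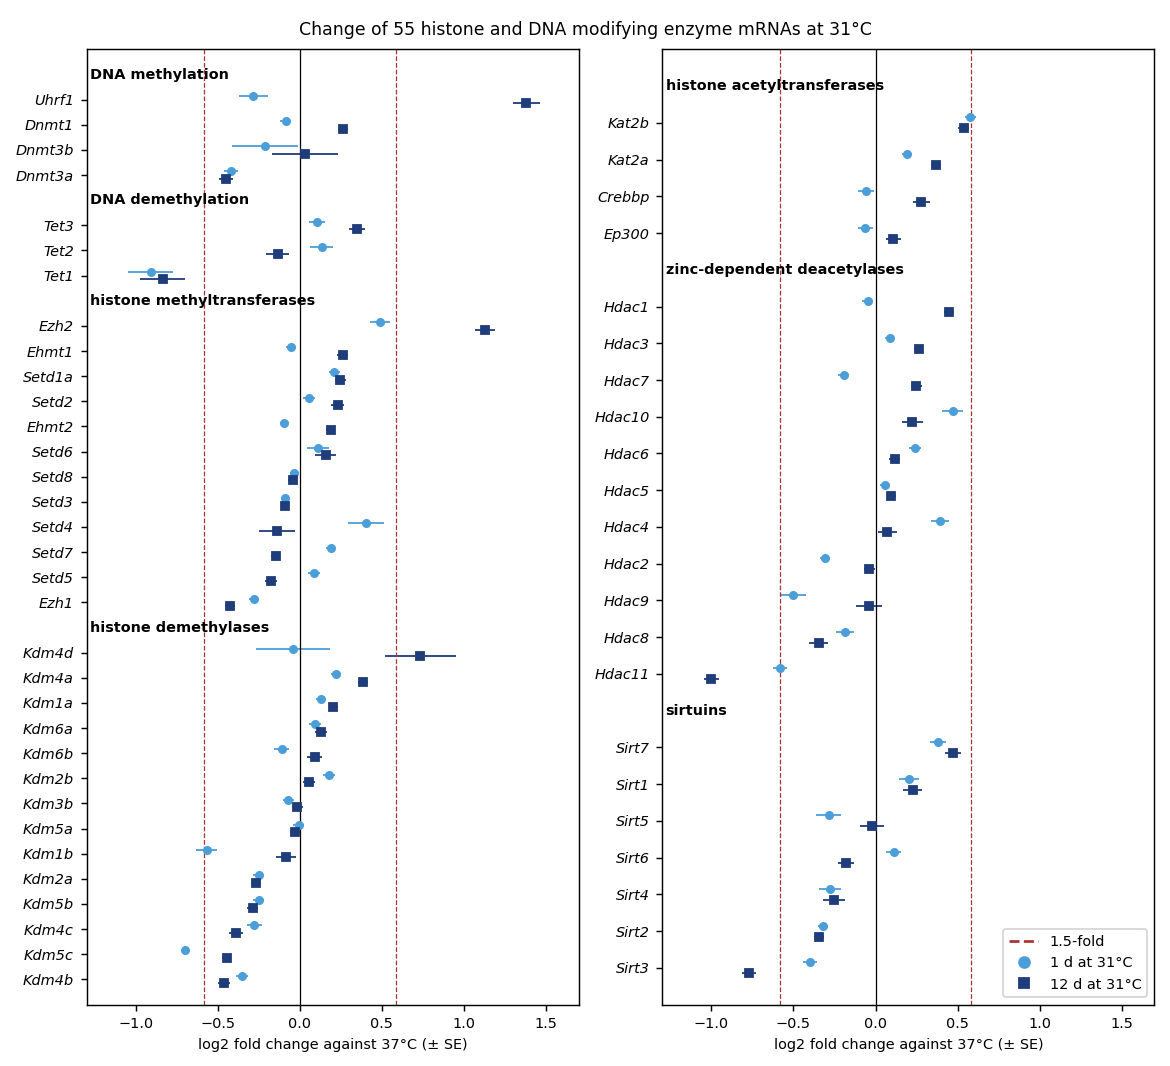
Log2 fold change against 37°C (x axis, ± SE from the edgeR fit) of the 55 enzyme mRNAs by class, after 1 day (circles) and 12 days (squares) at 31°C; dashed lines mark 1.5-fold. Uhrf1 (1.38), Ezh2 (1.13) and Kdm4d (0.73) lie right of the limit at day 12, Hdac11, Tet1 and Sirt3 left of it, and Tet1 and Kdm5c left of it at day 1.

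Other genes of the same machinery are given by the same rule. The shares of all genes called higher and lower, to which the counts compare, were 7.71% and 13.4% after 1 day, 13.0% and 16.2% after 12 days, and 10.6% and 8.53% between day 12 and day 1. Of 34 other histone methyltransferases tested, 2 were called higher (5.88%) and 3 lower (8.82%) after 1 day, 5 (14.7%) and 0 after 12 days, and 3 (8.82%) and 0 between day 12 and day 1. Suv39h1, a heterochromatin methyltransferase, rose by 0.81 and 0.88 on the log2 scale at days 1 and 12, Setdb2 by 0.83 and 0.65, and Suv39h2 and Whsc1 by 0.65 and 0.66 at day 12. Prmt2, an arginine methyltransferase, fell at day 1 (-1.10) and stood at -0.14 at day 12, and Carm1 (-0.74) and Mll1 (-0.60) also fell at day 1. Without day 1 replicate 5, Mll1 had -0.49 and was not called, which left 2 lower. Prmt1, the main arginine methyltransferase, rose by 0.71 at day 12.

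Of 11 other JmjC-type genes, 1 was called higher (9.09%) and 2 lower (18.2%) at day 1, 0 and 3 (27.3%) at day 12, and 0 and 0 between day 12 and day 1. The higher gene at day 1 was Jmjd7 (0.59), just past the limit and not called without day 1 replicate 5 (0.56), where Jhdm1d was called lower between day 12 and day 1 (-0.59). Jmjd8 (-0.84 and -1.3) and Mina (-0.86 and -1.01) fell at both times, and Jmjd6 at day 12 (-0.62). Of 14 other acetyltransferases, 1 was called higher and 0 lower at day 1 (Hat1, which acetylates new histone H4, 0.62), and 0 were called in either direction at day 12 against day 0 or day 1, where 4 and 5 were higher and 6 and 5 lower by adjusted p alone. Against day 1 these last counts were 2 higher and 6 lower without day 1 replicate 5. Over all genes, 39.2% and 34.3% were higher and 37.4% and 32.8% lower by adjusted p alone at day 12 against day 0 and day 1.

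Of 69 complex subunits and readers, 3 were called higher and 3 lower at day 1 (4.35% each), 5 (7.25%) and 4 (5.8%) at day 12, and 5 (7.25%) and 0 at day 12 against day 1, and these counts at day 1 and against day 1 were equal without day 1 replicate 5. Sin3b, a scaffold that holds Hdac1 and Hdac2, rose by 0.92 and 0.72 on the log2 scale at days 1 and 12. Uhrf2, the paralog of Uhrf1, fell (-0.95 and -0.73) where Uhrf1 had -0.28 and 1.38. Tdg, Ogt and Mbd4, described with the Tet enzymes, belong to this list. Gatad2a and Mbd3, both of the NuRD complex, rose at day 12 by 0.61 and 0.62. From day 1 to day 12 their partner Chd3 rose by 0.90, Ogt by 0.64 and the Polycomb reader Cbx6 by 0.59. Each was lower at day 1 than at day 0 (-0.49, -1.12 and -0.26). At day 12 against day 0 they had 0.41, -0.47 and 0.33, short of 1.5-fold. Pcgf6, another Polycomb subunit, rose by 0.66 and 0.72 at days 1 and 12, while the readers Cbx7 (-0.80) and Cbx1 (-0.61) fell at day 12.

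Uhrf1 and Ezh2 are known to be expressed with the cell cycle, and cell cycle genes moved at the same time. Of 32 listed cell cycle genes, 6 were called higher (18.8%) and 3 lower (9.38%) after 1 day, and 25 (78.1%) and 1 (3.12%) after 12 days. Those called lower were Cdc6 (-0.94), E2f1 (-1.14) and E2f2 (-1.26) after 1 day and E2f1 (-1.17) after 12 days, so the gene of one E2F activator was lower at both times. Against day 1, 25 were higher and 0 lower at day 12. The cell cycle list summed to 304 to 340 CPM at day 0, 350 to 375 at day 1 and 588 to 657 at day 12, with no overlap between groups. Its median log2 fold change was 0.26 after 1 day and 1.3 after 12 days, beside medians of all genes near 0. The proliferation marker Mki67, singled out after its values were seen, averaged 12.6 ± 1.85, 11.7 ± 1.83 and 45.3 ± 3.69 CPM at days 0, 1 and 12 (SD, n = 5), a pattern over the groups like that of Uhrf1, while Ezh2 was already higher at day 1. The part of the cell cycle genes, and of the adipocyte, fibroblast, chondrocyte and mesothelial markers that differed at day 12, in the values of Uhrf1 and Ezh2 was not tested.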

How the data were processed

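RNA from 15 libraries was sequenced, and per the labels and methods the authors checked reads with FastQC, aligned them to mm10 with TopHat2 2.0.13 and Bowtie2 2.2.1 and counted reads per gene with HTSeq. The deposited raw counts (18804 genes) are the only values used here. The strand setting of the counting is not given in the sources used here. The authors also deposited regularized log2 values and tables of DESeq2 fold changes, mean scaled counts, test statistics and p-values, which were not used. One gene outside the symbol rule is not reported here.

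Counts were tested with edgeR 4.0.16 in R 4.3.3 (filterByExpr, minimum count 10; TMM factors 0.946 to 1.09; glmQLFit and glmQLFTest) in one fit of all 15 libraries with Benjamini-Hochberg adjustment over 14293 genes, and with DESeq2 1.42.0 as an alternative. The procedure was tested on simulated data with 200 changed genes. CPM per kb uses the union of GENCODE exons. No count lay under the floor of 3. With 5 libraries per group and at least 64648178 reads in genes, counting error weighs most for Kdm4d, Dnmt3b and Tet1, which had the fewest reads.

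The members, lists and tests were chosen with earlier results of these data known, and the counts by adjusted p alone, by overlap and of the other lists without day 1 replicate 5 were added after seeing the data. The called enzymes, Dnmt1, Tet2 and Tet3 were named with all libraries, and the 5 highest per exon length with levels. Otherwise up to 4 enzymes per class or list with the smallest adjusted p in a comparison were named. The other names (Kat2b in all libraries, PRC2 partners, the 3 enzymes lowest per exon length and members of small counts) were added after their values were seen.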

Additional observations from a re-analysis of the deposited data

Results flagged for a closer look

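In a group of 5 libraries, a value was singled out when its gap to the nearest other library passed 0.71 of the range of the group (Dixon's 95% limit). Of 165 groups of the 55 enzymes, 9 passed (5.45%), where chance alone gives about 1 in 20, or 8.25. In day 1 replicate 5 the lowest values were Ep300 at 71.3 CPM (the others 83.8 to 87.9), Setd2 at 86.1 CPM (98.7 to 101), Tet2 at 18.7 CPM (25.4 to 26.7) and Tet3 at 23.3 CPM (28.2 to 29.9), all with at least 10000 bases of exon. The other libraries gave single high values: Ezh2 at 19.8 CPM in day 12 replicate 4 (18.5 to 18.8), Hdac1 at 103 CPM in day 0 replicate 2 (93.1 to 96.0), Kdm6b at 60.2 CPM in day 0 replicate 3 (51.1 to 52.5), Tet1 at 1.67 CPM in day 12 replicate 5 (1.39 to 1.43) and Tet3 at 34.8 CPM in day 12 replicate 1 (32.0 to 32.7).

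The change at day 12 differed from the change at day 1, by the direct edgeR test of day 12 against day 1, for Uhrf1 (log2 1.67, adjusted p = 1.93e-14), Kdm4d (0.779, adjusted p = 0.00327) and Ezh2 (0.644, adjusted p = 1.9e-09), each higher in 5 of 5 day 12 libraries than in any day 1 library.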

How the results depend on the processing

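The 6 counts of called enzymes were recomputed with other tests, scalings, filters and library subsets. Read as adjusted p alone they became 18 higher and 23 lower at day 1 against day 0, 25 and 17 at day 12 against day 0, and 22 and 15 at day 12 against day 1, since no fold limit applies. Scaling by total counts gave 1 higher at day 1, and 6 and 7 higher at day 12 against day 0 and day 1, with Sirt3 (-0.579) no longer called against day 0. It shifts the medians of all genes by construction, and the share of lower calls over all genes at day 12 against day 0 was 35.9% with it and 55.6% with TMM. A filter at a mean of 10 CPM left 1 higher at day 12 in each comparison, since Kdm4d and other low genes are not tested there, and its lower counts were 3 at day 1, where Tet1 is not tested and Hdac11 (-0.63) and Kdm1b (-0.615) were called beside Kdm5c, and 2 at day 12 against day 0. The library series as a covariate, or the larger series alone, gave 1 higher (Kat2b, 0.595 and 0.616) and 3 lower at day 1, with Hdac11 (-0.587 and -0.608) added to the lower genes. Without one library each, the day 1 counts ran from 0 to 1 higher and from 2 to 4 lower (4 without day 1 replicate 2, with Hdac11 and Kdm1b), the counts of day 12 against day 1 stayed at 3 higher and ran from 0 to 1 lower (Setd4, without day 12 replicate 4), and those of day 12 against day 0 stayed at 3 and 3. DESeq2, its size factors and no filter on low counts gave the same counts as the edgeR test.

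Libraries of equal replicate number correlated weakly: the 15 correlations of their deviations ran from -0.0255 to 0.0436, 0 of them over 0.1. Yet 10 of 15 libraries correlated best with their own number, more than unrelated numbering would give. Whether equal numbers mark paired libraries was therefore not settled. With the replicate number as a block the counts were 0 and 2 at day 1, 3 and 3 at day 12 against day 0, and 3 and 0 against day 1, and no call was altered.

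Signs turned only for small log2 values. With total counts these were, at day 1, Kdm5a (0.0139), at day 12 against day 0, Hdac2 (0.156), Hdac9 (0.152), Kdm1b (0.108), Kdm3b (0.179), Kdm5a (0.163), Setd3 (0.105), Setd4 (0.0528), Setd5 (0.0168), Setd7 (0.045), Setd8 (0.149), Sirt5 (0.175), Sirt6 (0.0127) and Tet2 (0.0576), and, against day 1, Dnmt3a (0.143), Ezh1 (0.0275), Hdac6 (0.0497), Hdac8 (0.014), Kat2b (0.131), Kdm2a (0.158), Kdm2b (0.0504), Kdm4b (0.0671), Kdm4c (0.0601), Kdm5a (0.149), Kdm5b (0.138), Setd8 (0.162) and Sirt2 (0.148). Between day 12 and day 1 the 10 CPM filter turned Kdm2a (0.0112), Kdm5a (0.00254), Setd8 (0.0163) and Sirt2 (0.0016), the larger series Setd3 (-5.33e-05), Sirt1 (-0.00912), Sirt2 (0.00527) and Tet1 (-0.034), DESeq2 Setd3 (-0.00747) and its size factors Setd3 (-0.00742). The larger series turned Crebbp at day 1 (0.0213). Leaving out one library gave values on both sides of 0 for Kdm4d (-0.163 to 0.0442) and Kdm5a (-0.0187 to 0.015) at day 1, for Dnmt3b (-0.0737 to 0.131), Hdac9 (-0.1 to 0.0221), Kdm3b (-0.0352 to 0.00448) and Sirt5 (-0.0446 to 0.0132) at day 12 against day 0, and for Setd3 (-0.00313 to 0.00919), Setd8 (-0.0198 to 0.00435), Sirt1 (-0.0197 to 0.0454), Sirt4 (-0.0223 to 0.0591) and Tet1 (-0.00545 to 0.179) at day 12 against day 1. Except where a cause is given, the cause was not tested.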
